A study of Mus musculus with 4 samples.

Results

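Genes that mark T cells, natural killer (NK) cells and B cells were examined in RNA sequencing of 4 mouse livers. The 38 genes were listed by name and found by symbol among the 21959 gene IDs of the deposited count table, and all 38 were present. All mice were wild type (WT) and had ACLF, acute-on-chronic liver failure, a sudden loss of function in a liver that is already diseased. Baicalein, a flavone of Scutellaria root, had been given for 2 of the livers and saline for the other 2. Failure and the wild-type genotype are therefore shared by both groups, and no healthy liver was analysed here. The labels do not state how failure was induced, the dose, the time, the age or the sex of the mice, nor that each liver is from its own animal. Hence each p-value reflects the spread among these 4 livers alone, which may be technical.

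T cells recognise peptides on MHC molecules through a receptor whose CD3 chains carry no enzyme of their own and rely on the kinases LCK and ZAP70. NK cells and cytotoxic T cells kill by releasing perforin and granzymes from granules. B cells signal through an antigen receptor that needs CD79A and CD79B, and when they become plasma cells they secrete antibody. Liver is rich in NK cells and in T cells that stay in its sinusoids, and its plasma cells and antibody transporters supply bile with polymeric IgA.

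The lymphocyte genes were read at low depth. Total counts were 14766061 and 18731616 in baicalein 1 and baicalein 2, and 17673137 and 13976440 in saline 1 and saline 2. The 38 genes together had 1097 and 1428 reads in the baicalein livers, against 607 and 457 reads in the saline livers. A single gene had from 4 reads (Foxp3, Mzb1 having 6) to 465 reads (Il2rb) over the 4 livers, so the number of reads limits every value given here. In counts per normalised library, scaled to a common library size as CPM, the 38 genes summed to 75.4 and 71.3 CPM with baicalein and to 35.7 and 33.3 CPM with saline, a ratio of group means of 2.13. Both baicalein livers lay above both saline livers, and the lowest and highest ratios of a baicalein liver to a saline liver were 1.997 and 2.26. In whole liver, more cells of a type and more RNA per cell cannot be told apart.

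Further differences between the livers touch each comparison. The 4 Y-linked genes had 2 and 1 reads in the baicalein livers and 820 and 836 in the saline livers, so treatment and the sex that these counts reflect cannot be told apart here. Skeletal muscle genes crossed the groups, with 11 and 29851 reads in baicalein 1 and baicalein 2 and 88391 and 17 in saline 1 and saline 2. The 38 genes summed to 75.4 CPM in baicalein 1 and 33.3 CPM in saline 2, the livers with few muscle reads, a ratio of 2.26. In the livers with many they summed to 71.3 CPM in baicalein 2 and 35.7 CPM in saline 1, a ratio of 1.997. Some bile duct genes were high in baicalein 2, where Krt19, a keratin of bile duct cells, had 23 and 1448 reads in baicalein 1 and baicalein 2 and 39 and 17 in saline 1 and saline 2. Epcam, an epithelial adhesion gene, had 32 and 388 reads in baicalein 1 and baicalein 2 and 71 and 35 in saline 1 and saline 2. Of the 5 bile duct genes Sox9 (-1.16, SE 0.22) and Spp1 (-1.16, SE 0.11) fell and 3 did not pass. In baicalein 2 Sox9 was at 6.24 CPM, against 13.23 and 10.65 CPM with saline. Spp1 was at 24.15 CPM there, against 50.32 and 49.67 CPM with saline. All 8 hepatocyte markers were read in each liver, with a median log2 fold change of -0.03. Alb (0.57, SE 0.14) and Cps1 (0.60, SE 0.11) rose, Tat (-0.40, SE 0.11) fell and 5 did not pass.

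Most of the 38 genes were higher with baicalein, and few differed by enough to pass a test of their own. The mean CPM was higher with baicalein for 36 genes and lower for 2 (Cd4 and Ncr1), where 53.7% of the 16298 genes with any count had a higher mean. Both baicalein livers lay above both saline livers for 29 of the 38 genes, which 26.8% of the genes with any count and 29.7% of the tested genes did. They lay below for 1 (Cd4), which 24.7% of the genes with any count and 29.5% of the tested genes did. For Cd4, baicalein 2 at 2.89 CPM and saline 2 at 2.92 CPM were nearly level. The median log2 ratio of mean CPM, with 0.1 CPM added to each mean, was 1.00 over the 38 genes and 0.04 over the genes with any count. Of the 38, 30 had enough counts for edgeR's quasi-likelihood test, fitted over 12657 genes with Benjamini-Hochberg adjustment and a threshold of 0.05. Of the 30, 5 (Cd8b1, Cd5, Prf1, Blk and Gata3) reached the count limit in the baicalein livers alone. Jchain, Gzma, Lck and Il2rb rose and 26 of the 30 did not pass, where 7.65% of all tested genes rose. None of the 30 fell, where 7.90% of all tested genes did. At an unadjusted p below 0.05, 13 of the 30 were higher and 0 lower, where 14.7% of all tested genes were higher and 14.7% lower. DESeq2 called 2 of the 30 higher (6.83% of all genes) and limma-voom 4 (7.73%), and neither called any lower. Without a filter on low counts 5 were called higher (6.31% of the genes), and 1 when the replicate number was a block (4.20%).

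**Figure D1:**
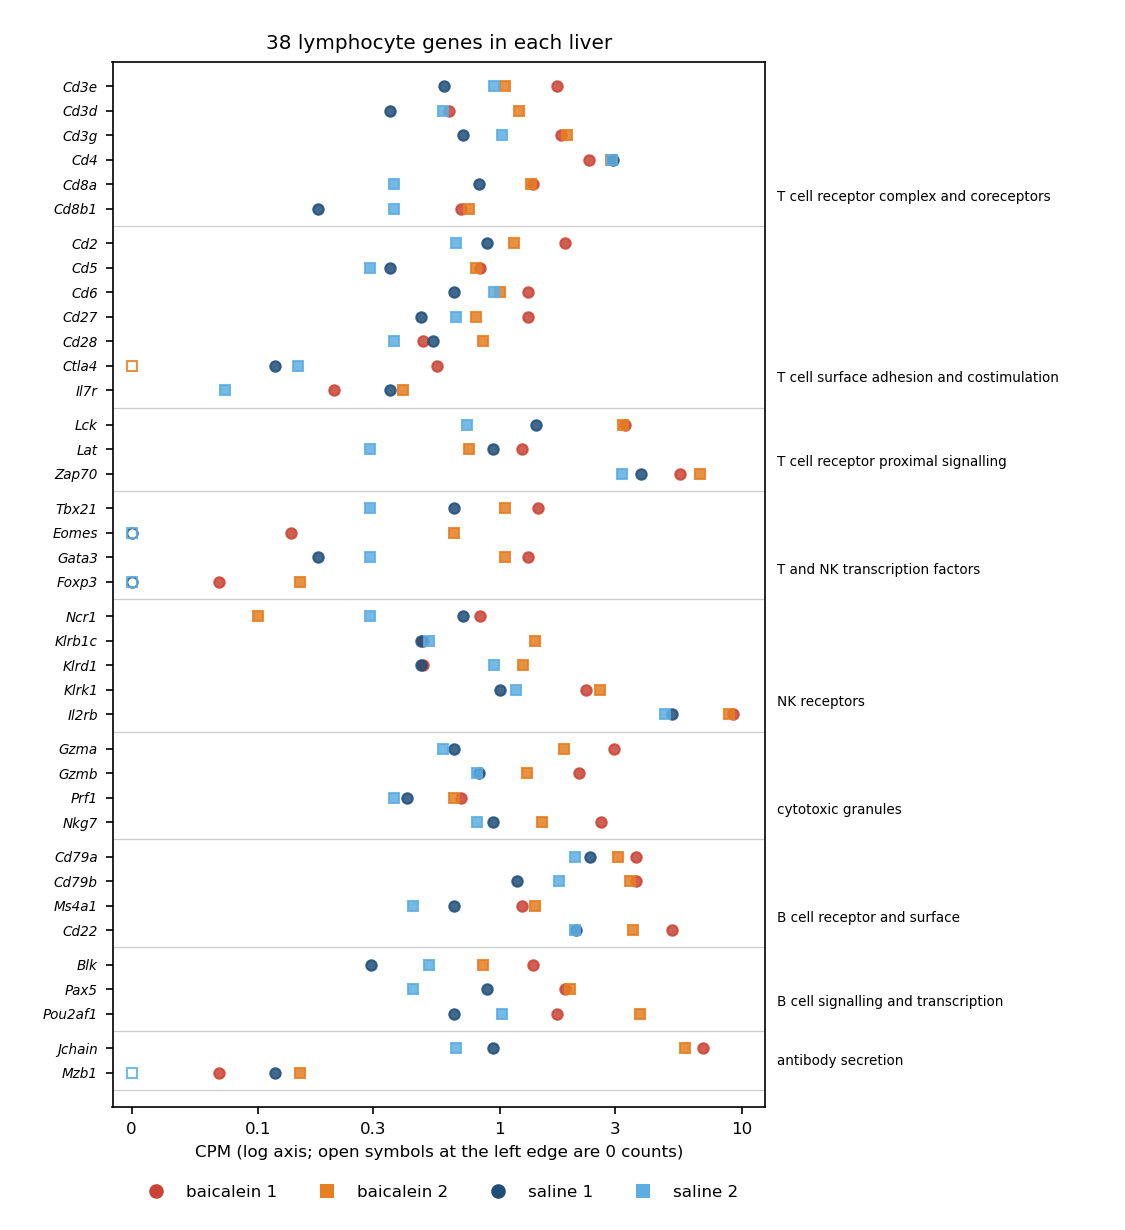
CPM of each of the 38 lymphocyte genes on a log axis, by role, in baicalein 1 and 2 and saline 1 and 2. Points are single livers and open symbols at the left edge are livers with 0 counts. For 29 genes both baicalein livers lie to the right of both saline livers, and for Cd4 both lie to the left, baicalein 2 only just.

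Jchain showed the clearest difference. It encodes the joining chain that links IgA or IgM into polymers, and it lies on chromosome 5 (ENSMUSG00000067149, 88667668 to 88675750 in the deposited table, whose build is discussed with the processing). It had 101 and 117 reads in the baicalein livers, against 16 and 9 reads in the saline livers, or 6.95 and 5.84 CPM against 0.941 and 0.656 CPM. Its mean was 6.39 ± 0.783 CPM with baicalein and 0.798 ± 0.201 CPM with saline (SD, n = 2 each). The log2 fold change was 2.98 (SE 0.34, edgeR adjusted p = 7.07e-04), about 7.89-fold. Jchain alone of the 30 was still called whichever liver was left out, with an adjusted p of at most 0.0174. Mzb1, which encodes an endoplasmic reticulum protein that helps B cells and plasma cells assemble antibody, had 1 and 3 reads with baicalein and 2 and 0 with saline. Its ratio of 1.78 had a 95% counting interval of 0.255 to 19.6, so no difference was detectable at this depth in either direction.

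Other genes of antibody-secreting cells were called in both directions. Of 12 tested genes on a wider plasma cell list, 2 rose, 2 fell and 8 did not pass. Their median log2 fold change was 0.13 against 0.01 over all tested genes. Creld2 (0.57, SE 0.13) and Xbp1 (0.39, SE 0.11), which act in protein folding and the secretory programme, were higher. Fkbp11 (-0.94, SE 0.17) and Ssr4 (-0.46, SE 0.12), which act in folding and in translocation into the endoplasmic reticulum, were lower. Hepatocytes express all of these 4 genes too, and Xbp1 averaged 117 FPKM over the livers against 1.45 FPKM for Jchain, FPKM being a read count scaled to gene length and library size. Each of the 4 calls was lost without 2 or 3 of the livers in turn. The immunoglobulin chain genes Ighm, Igkc, Iglc1 and Iglc2 were not analysed here.

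Among the cytotoxic granule genes, Gzma rose and the other 3 were higher in both baicalein livers without passing. Both baicalein livers lay above both saline livers for 29.7% of all tested genes. Gzma encodes granzyme A, a granule protease (ENSMUSG00000023132, chromosome 13, 113230359 to 113237515). It had 43 and 37 reads with baicalein and 11 and 8 with saline, or 2.96 and 1.85 CPM against 0.647 and 0.583 CPM. The log2 fold change was 1.94 (SE 0.49, edgeR adjusted p = 0.0285). Gzmb, the granzyme that cleaves after aspartate, was at 2.13 and 1.30 CPM with baicalein and 0.823 and 0.802 CPM with saline (log2 fold change 1.06, SE 0.51, adjusted p = 0.203). Nkg7, a granule membrane protein gene, was at 2.61 and 1.497 CPM with baicalein and 0.941 and 0.802 CPM with saline (log2 fold change 1.22, SE 0.49, adjusted p = 0.137). Prf1, which encodes perforin, was at 0.688 and 0.649 CPM with baicalein and 0.412 and 0.365 CPM with saline (log2 fold change 0.77, SE 0.69, adjusted p = 0.518). For Gzma, Gzmb and Nkg7 baicalein 1 was the highest liver, and the saline livers lay close together. Summed over the 4 granule genes, the livers stood at 8.39 and 5.29 CPM with baicalein and 2.82 and 2.55 CPM with saline. Gzma was not called whichever liver was left out (adjusted p up to 0.204), nor with DESeq2 (0.0520) or limma-voom (0.0551).

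Among the receptors of NK cells Il2rb rose, and 3 of the other 4 overlapped between the groups. Il2rb, the chain shared by the receptors for interleukin 2 and interleukin 15, had the most reads of the 38 genes (ENSMUSG00000068227, chromosome 15, 78363456 to 78379471). It had 134 and 177 reads with baicalein and 88 and 66 with saline, or 9.21 and 8.83 CPM against 5.17 and 4.81 CPM. It rose with baicalein (log2 fold change 0.85, SE 0.20, edgeR adjusted p = 0.0209), a call lost whichever liver was left out (adjusted p up to 0.128). Klrk1, which encodes the activating receptor NKG2D, was at 2.27 and 2.59 CPM with baicalein and 0.999 and 1.17 CPM with saline (log2 fold change 1.17, SE 0.41, adjusted p = 0.0969). The more NK-restricted receptors overlapped between the groups. Ncr1, which encodes NKp46, had 12 and 2 reads with baicalein and 12 and 4 with saline (log2 fold change -0.19, SE 1.01, adjusted p = 0.929). Klrb1c, which encodes the NK1.1 antigen, had 7 and 28 reads with baicalein and 8 and 7 with saline, so baicalein 2, the liver with high Krt19 and Epcam reads, alone stood apart. The part of bile duct and muscle tissue in the lymphocyte reads of this liver was not tested. Klrd1, which encodes CD94, had 7 and 25 reads with baicalein and 8 and 13 with saline (log2 fold change 0.32, SE 0.70, adjusted p = 0.818). Klrb1c belongs to a family of close paralogs, and the sources used here do not say how reads shared between copies were counted. Without baicalein 2 or saline 1 the log2 fold change of Ncr1 was 0.70 or 0.61 and that of Klrd1 -0.54 or -0.13, so neither had a stable direction.

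The T cell receptor complex was higher with baicalein except for Cd4, and none of its members passed. Cd3e, Cd3d and Cd3g encode the signalling chains of the complex and lie together on chromosome 9, Cd3g and Cd3d 1354 bases apart on opposite strands. Cd3g was at 1.79 and 1.90 CPM with baicalein and 0.705 and 1.02 CPM with saline (log2 fold change 1.09, SE 0.47, adjusted p = 0.165). Cd3e was at 1.72 and 1.05 CPM with baicalein and 0.588 and 0.948 CPM with saline (log2 fold change 0.84, SE 0.56, adjusted p = 0.364). Cd3d had 9 and 24 reads with baicalein and 6 and 8 with saline, too few to test. The CD3 genes thus did not overlap between groups, though baicalein 2 and saline 2 lay close for Cd3e and baicalein 1 and saline 2 for Cd3d. Both baicalein livers lay above both saline livers for 26.8% of the genes with any count. The CD8 coreceptor genes were higher and Cd4 was not. Cd8a was at 1.38 and 1.35 CPM with baicalein and 0.823 and 0.365 CPM with saline (log2 fold change 1.17, SE 0.59, adjusted p = 0.228), and Cd8b1 at 0.688 and 0.748 CPM with baicalein and 0.176 and 0.365 CPM with saline (1.41, SE 0.77, adjusted p = 0.261). Cd4, the coreceptor for MHC class II, was at 2.34 and 2.89 CPM with baicalein and 2.94 and 2.92 CPM with saline (log2 fold change -0.16, SE 0.33, adjusted p = 0.808). By the authors' FPKM its groups overlapped, with baicalein 2 (0.768) above saline 1 (0.702) and saline 2 (0.710). Some mouse dendritic cells transcribe Cd4 as well. In the 6 genes, 1 (Cd3g) had an unadjusted edgeR p below 0.05, and DESeq2 and limma-voom called 0.

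Downstream of the receptor, Lck rose. It encodes the kinase that phosphorylates the CD3 chains (ENSMUSG00000000409, chromosome 4, 129442137 to 129467434). It had 48 and 65 reads with baicalein and 24 and 10 with saline, or 3.30 and 3.24 CPM against 1.41 and 0.729 CPM. The baicalein livers were nearly level and the saline livers differed from each other. The log2 fold change was 1.60 (SE 0.43, edgeR adjusted p = 0.0398), a call lost whichever liver was left out (adjusted p up to 0.238) and with DESeq2 (0.0663). Zap70, the kinase that docks on phosphorylated CD3 chains, was at 5.57 and 6.74 CPM with baicalein and 3.82 and 3.21 CPM with saline (log2 fold change 0.81, SE 0.26, adjusted p = 0.0708). Lat, the adaptor that ZAP70 phosphorylates, overlapped between groups at 1.24 and 0.748 CPM with baicalein and 0.941 and 0.292 CPM with saline (log2 fold change 0.65, SE 0.70, adjusted p = 0.599).

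The surface and costimulatory genes of T cells were thinly covered. Cd2, an adhesion receptor gene, was at 1.86 and 1.15 CPM with baicalein and 0.882 and 0.656 CPM with saline (log2 fold change 0.95, SE 0.53, adjusted p = 0.278). Cd5, which encodes a brake on receptor signalling, was at 0.825 and 0.798 CPM with baicalein and 0.353 and 0.292 CPM with saline (log2 fold change 1.31, SE 0.68, adjusted p = 0.245). Its neighbour and relative Cd6 was at 1.31 and 0.998 CPM with baicalein and 0.647 and 0.948 CPM with saline (0.53, SE 0.55, adjusted p = 0.580). These groups did not overlap, but for Cd6 baicalein 2 and saline 2 were close. Both baicalein livers lay above both saline livers for 29.7% of all tested genes. Cd27, a costimulatory receptor of the TNF receptor family, had 19 and 16 reads with baicalein and 8 and 9 with saline (log2 fold change 0.89, SE 0.61, adjusted p = 0.384). It lies inside Vamp1 on the other strand in the deposited table, and reads of the overlapping genes cannot be told apart if strand was not used. Cd28, the receptor for B7 costimulation, had 7 and 17 reads with baicalein and 9 and 5 with saline. Its inhibitory counterpart Ctla4 had 8 and 0 with baicalein and 2 and 2 with saline, and Il7r, the survival receptor of resting T cells, had 3 and 8 with baicalein and 6 and 1 with saline. The groups overlapped for these 3, which were not tested. Of the 7 surface genes 0 passed with edgeR, 0 had an unadjusted p below 0.05, and DESeq2 and limma-voom called 0.

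Transcription factors that set T and NK cell types were scarce in saline livers. Gata3, which directs type 2 helper and innate lymphoid cells, had 19 and 21 reads with baicalein and 3 and 4 with saline, or 1.31 and 1.05 CPM against 0.176 and 0.292 CPM. Its log2 fold change of 2.31 (SE 0.68, edgeR adjusted p = 0.0529) was the second largest of the 30 and did not pass. Tbx21, which encodes T-bet of type 1 helper and NK cells, was at 1.44 and 1.05 CPM with baicalein and 0.647 and 0.292 CPM with saline (log2 fold change 1.37, SE 0.63, adjusted p = 0.190). Eomes, the relative of T-bet in NK and memory T cells, had 2 and 13 reads with baicalein and 0 in both saline livers. Its reads were mostly those of baicalein 2, and the 2 reads of baicalein 1 are under a floor of 3 counts. Foxp3, the factor of regulatory T cells, had 1 and 3 reads with baicalein and 0 in both saline livers, and no fold is given for either gene. None of the 4 factors passed with edgeR; 1 had an unadjusted p below 0.05, and DESeq2 and limma-voom called 0.

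B cell genes were higher with baicalein in each case without passing. Cd79b and Cd79a encode the signalling chains of the B cell receptor. Cd79b was at 3.64 and 3.44 CPM with baicalein and 1.18 and 1.75 CPM with saline (log2 fold change 1.28, SE 0.37, adjusted p = 0.0522), and limma-voom called it (adjusted p = 0.0421). Cd79a was at 3.64 and 3.09 CPM with baicalein and 2.35 and 2.04 CPM with saline (log2 fold change 0.61, SE 0.33, adjusted p = 0.265). Cd22, an inhibitory receptor that binds sialic acid, was at 5.16 and 3.54 CPM with baicalein and 2.06 and 2.04 CPM with saline (log2 fold change 1.08, SE 0.33, adjusted p = 0.0630). Ms4a1, which encodes CD20, was at 1.24 and 1.40 CPM with baicalein and 0.647 and 0.438 CPM with saline (1.26, SE 0.56, adjusted p = 0.174). Both baicalein livers lay above both saline livers for these 4 surface genes, which 29.7% of all tested genes did.

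The nuclear and kinase genes of B cells were also higher in both baicalein livers than in both saline livers, which 29.7% of all tested genes were. Pou2af1, a coactivator of octamer-binding factors, had 25 and 76 reads with baicalein and 11 and 14 with saline, or 1.72 and 3.79 CPM against 0.647 and 1.02 CPM. Baicalein 2 held most of its reads, and its log2 fold change of 1.73 (SE 0.52, adjusted p = 0.0586) passed when no filter on low counts was applied (adjusted p = 0.0437). Pax5, the factor that maintains B cell identity, was at 1.86 and 1.95 CPM with baicalein and 0.882 and 0.438 CPM with saline (log2 fold change 1.502, SE 0.52, adjusted p = 0.0918). Blk, a Src-family kinase of B cells, was at 1.38 and 0.848 CPM with baicalein and 0.294 and 0.511 CPM with saline (1.46, SE 0.66, adjusted p = 0.182). In the 7 B cell genes, 0 passed with edgeR, DESeq2 called 0 and limma-voom called 1 (Cd79b). At an unadjusted edgeR p below 0.05, 4 of the 7 were higher, where 14.7% of all tested genes were higher.

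**Figure D2:**
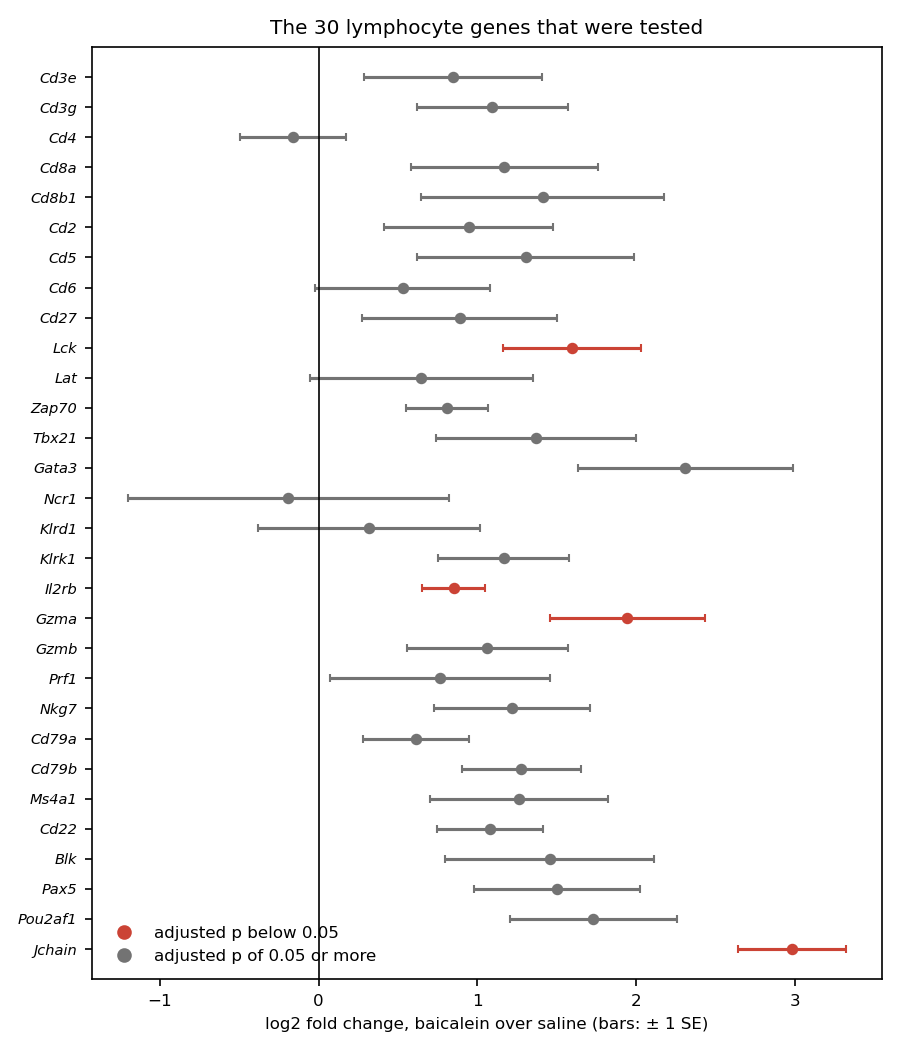
Log2 fold change of baicalein over saline with 1 SE for the 30 tested lymphocyte genes, red where the adjusted p was below 0.05. Jchain stands at 2.98, Gata3 at 2.31 with a wide error, and Cd4 (-0.16) and Ncr1 (-0.19) lie left of 0.

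Summed by role, each of the 9 roles was higher in both baicalein livers than in both saline livers, a description with no test. The 7 B cell genes summed to 18.6 and 18.1 CPM with baicalein and 8.05 and 8.24 CPM with saline, a ratio of group means of 2.25. The 9 NK receptor and granule genes summed to 21.7 and 19.5 CPM with baicalein and 10.6 and 10.3 CPM with saline (ratio 1.97). The 16 genes of the T cell receptor, its signalling and its surface partners summed to 25.2 and 24.9 CPM with baicalein and 15.1 and 13.6 CPM with saline (ratio 1.74). The B cell sum was 0.741 and 0.727 of the T cell sum, which includes Cd4, in the baicalein livers, against 0.533 and 0.607 in the saline livers. The receptor complex had the smallest ratio of the roles (1.498), and without Cd4, its member of highest CPM, the log2 ratio was 1.07 in place of 0.58. Without Jchain the remaining 37 genes summed to 68.5 and 65.4 CPM with baicalein and 34.7 and 32.7 CPM with saline.

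**Figure D3:**
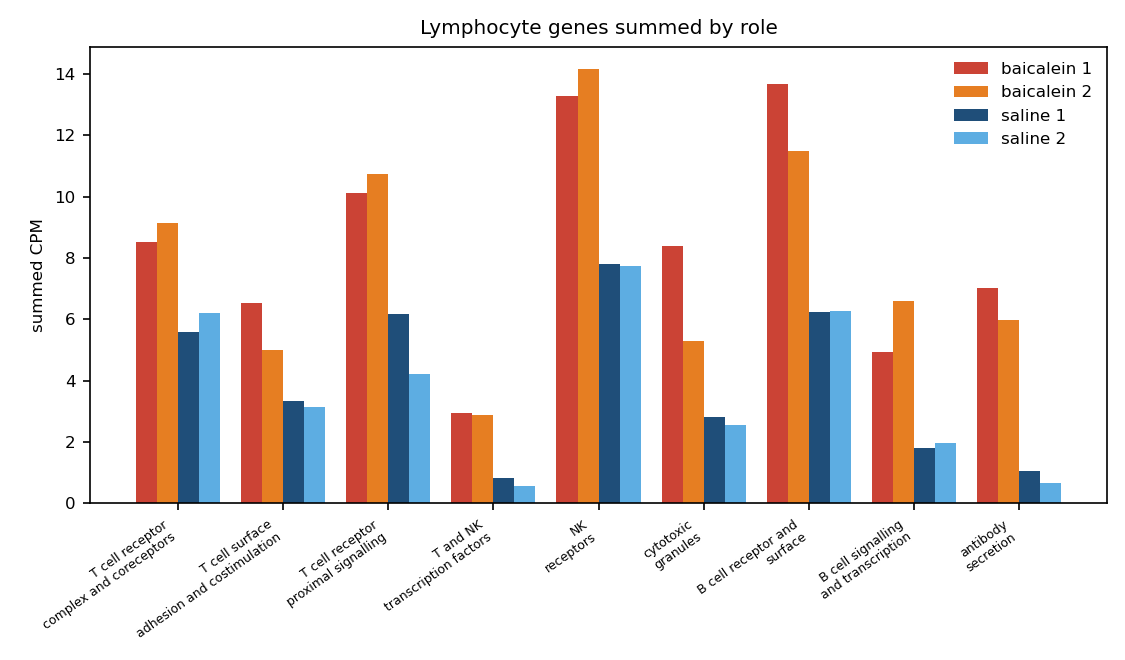
Summed CPM of the lymphocyte genes of each role in baicalein 1 and 2 and saline 1 and 2, as bars from 0. The baicalein bars stand above the saline bars in every role, from a ratio of means of 1.498 in the T cell receptor complex to 7.58 in the antibody secretion genes, where Jchain holds nearly all reads.

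Per length, the levels of the leading genes were close to each other. By the authors' FPKM the highest means over the 4 livers were those of Cd79a (1.92), Cd79b (1.77), Il2rb (1.65), Zap70 (1.63), Nkg7 (1.61), Gzma (1.51) and Jchain (1.45). The ranges of neighbours in this order overlapped over the livers, and Cd79a alone ran from 1.38 to 2.46 FPKM and Jchain from 0.256 to 2.72 FPKM. In the saline livers Jchain (0.360 and 0.256 FPKM) was below Cd79a (1.55 and 1.38 FPKM), while in the baicalein livers its level (2.72 and 2.48 FPKM) was above that of Cd79a (2.46 and 2.27 FPKM). Zap70 was read at a higher FPKM than the CD3 genes in each liver, with a mean of 1.63 FPKM against 0.264 for Cd3e, 0.386 for Cd3d and 0.418 for Cd3g. Foxp3 (0.0125) and Eomes (0.0499) had the lowest means. For scale, Alb of hepatocytes averaged 29020 FPKM and Clec4f, a lectin of the liver macrophages called Kupffer cells, 77.1 FPKM.

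Promoter sequences of the granule genes, Lck and Jchain are shown because these roles hold 3 of the 4 genes that rose. Of the 38 genes 27 had a RefSeq promoter on GRCm38.p6, with 32 distinct windows, and the 250 bases before each start were searched on both strands for 5 motifs. The RUNX motif was TGTGGT, whose letters on the other strand read ACCACA. It stood in 10 of the 32 windows, against 14% of all 32817 windows. All 4 granule genes and all 3 NK receptor genes with a window (Klrb1c, Klrk1 and Ncr1, whose 2 windows overlap) held it, as did Lck and Zap70. Of the 5 B cell and antibody genes with a window, 0 held it. The E-box, CANNTG, stood in 29 of the 32 windows and in 66.2% of all windows. The ETS motif, GAGGAA, stood in 10 windows and in 23.3% of all. The motif of GATA factors, AGATAA, stood in 2 windows and in 9.99% of all. The octamer motif, ATTTGCA, stood in 1, that of Pou2af1, and in 3.57% of all. Each motif was counted by itself, also where it overlapped another, and the motifs were chosen with the results known. A match is a run of letters and not a measured site. Each line runs 5′ to 3′ along the gene and ends at the base before the start. The 30 bases after the start were found in a GENCODE transcript of the gene for 22 of the 32 windows. They were not found for Gzmb, Prf1 and Jchain, whose starts rest on RefSeq alone. Capitals mark the RUNX motif in the granule genes and Lck and the E-box in Jchain. The E-box also stands, unmarked, in Gzma (3 times), Gzmb (2), Prf1 (4) and Nkg7 (2).
Gzma (chr13:113100982-113101231, minus strand): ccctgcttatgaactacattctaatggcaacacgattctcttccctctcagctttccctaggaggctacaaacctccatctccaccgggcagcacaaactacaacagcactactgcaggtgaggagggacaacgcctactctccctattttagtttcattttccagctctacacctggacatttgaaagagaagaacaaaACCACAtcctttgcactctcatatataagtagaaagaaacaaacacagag
Gzmb (chr14:56262335-56262584, minus strand): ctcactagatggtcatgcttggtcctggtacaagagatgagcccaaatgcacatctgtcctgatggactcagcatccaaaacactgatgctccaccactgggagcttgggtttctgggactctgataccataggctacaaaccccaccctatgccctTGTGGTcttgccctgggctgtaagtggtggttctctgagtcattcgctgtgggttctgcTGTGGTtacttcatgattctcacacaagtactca
Prf1 (chr10:61297586-61297835, plus strand): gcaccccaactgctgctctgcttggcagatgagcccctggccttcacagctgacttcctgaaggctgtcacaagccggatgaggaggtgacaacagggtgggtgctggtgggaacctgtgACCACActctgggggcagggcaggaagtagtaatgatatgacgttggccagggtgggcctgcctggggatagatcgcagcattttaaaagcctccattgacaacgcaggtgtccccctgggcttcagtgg
Nkg7 (chr7:43436888-43437137, plus strand): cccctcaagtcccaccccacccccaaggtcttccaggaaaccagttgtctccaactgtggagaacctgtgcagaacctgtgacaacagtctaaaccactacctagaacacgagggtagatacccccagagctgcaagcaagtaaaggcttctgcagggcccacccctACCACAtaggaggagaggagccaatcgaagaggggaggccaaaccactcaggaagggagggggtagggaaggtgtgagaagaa
Lck, upstream start (chr4:129573642-129573891, minus strand): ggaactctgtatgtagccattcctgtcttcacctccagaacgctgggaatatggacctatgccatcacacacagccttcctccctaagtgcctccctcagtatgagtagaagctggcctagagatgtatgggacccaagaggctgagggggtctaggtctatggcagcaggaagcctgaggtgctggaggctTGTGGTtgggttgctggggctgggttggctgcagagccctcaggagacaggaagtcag
Jchain (chr5:88527898-88528147, minus strand): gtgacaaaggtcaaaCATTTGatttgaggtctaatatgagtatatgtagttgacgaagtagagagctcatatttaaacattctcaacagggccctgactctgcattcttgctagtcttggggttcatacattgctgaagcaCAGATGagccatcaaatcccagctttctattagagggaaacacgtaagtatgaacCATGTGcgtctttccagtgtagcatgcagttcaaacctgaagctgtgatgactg

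No promoter entry was matched for Cd4, Cd8b1, Cd2, Cd6, Cd28, Klrd1, Il2rb, Cd79b, Ms4a1, Blk and Mzb1. The RUNX motif began 50 bases before the start in Gzma, 34 and 93 in Gzmb, 83 in Nkg7, 130 in Prf1 and 58 at the upstream start of Lck, whose other window had none. Lck is known to be transcribed from a proximal promoter in thymocytes and a distal one in mature T cells. The counts are per gene and do not tell the starts apart.

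Genes expressed widely among white blood cells were counted next, some of which, such as the Gimap genes, are mainly those of lymphocytes, and Vav1 stands on the T cell signalling list too. Of 32 pan-leukocyte genes, all of which were tested, 15 rose, 17 did not pass and 0 fell. Their median log2 fold change was 0.74 against 0.01 over all tested genes. None of the 32 was called lower by DESeq2 or limma-voom or had an unadjusted p below 0.05 in that direction. Ptprc, which encodes CD45 of all white blood cells, was at 9.56 and 8.88 CPM with baicalein and 3.76 and 4.01 CPM with saline (log2 fold change 1.25, SE 0.21, edgeR adjusted p = 0.00483). Itgal, the integrin chain of LFA-1, rose by 0.90 (SE 0.12) and Gimap6, a GTPase of lymphocytes and endothelium, by 0.86 (SE 0.13). Itgal and Gimap6 were called with any liver left out. Ptprc was not called without baicalein 1 (adjusted p = 0.0561), and 4 to 9 of the 32 were called with a liver left out. Set against Ptprc, Jchain stood at 0.727 and 0.657 in the baicalein livers and at 0.250 and 0.164 in the saline livers. Il2rb stood at 0.964 and 0.994 with baicalein and at 1.38 and 1.2 with saline, so its ratio to Ptprc ran the other way. The ratios of Lck (0.345 and 0.365 with baicalein, 0.375 and 0.182 with saline), Cd3e and Cd79b to Ptprc overlapped between the groups. Those of Gzma did not, at 0.309 and 0.208 with baicalein and 0.172 and 0.146 with saline.

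Most tested genes of wider lists for each lineage did not pass, where 7.65% of all tested genes rose. Of 18 tested T cell signalling genes beyond the 38, 3 rose (Vav1, Lcp2 and Fyn) and 0 fell (median log2 fold change 0.55). Vav1, a guanine nucleotide exchange factor of lymphocytes and myeloid cells, rose by 1.11 (SE 0.19, adjusted p = 0.00555) and was not called without baicalein 2 (0.0588). Of 16 tested NK and cytotoxic genes, Tnfsf10 (1.13, SE 0.17), which encodes the death ligand TRAIL, and Zbtb16 (0.48, SE 0.12), the factor PLZF of NKT cells, rose and 0 fell (median 0.65). Of 21 tested B cell genes, Cd38 (1.00, SE 0.10), Spib (1.48, SE 0.39) and Plcg2 (1.08, SE 0.30) rose and 0 fell (median 0.60). Tnfsf10 and Cd38 were called with any liver left out, Lcp2, Fyn, Zbtb16 and Spib in none of those fits, and Plcg2 in 1. At an unadjusted p below 0.05, 1 T cell signalling gene and 0 of the other 2 lists were lower, and DESeq2 and limma-voom called 0 of the 3 lists lower. Several of these genes, Plcg2 and Tnfsf10 among them, are also expressed by macrophages. Trbc1, Trbc2, Cd244 and Tnfsf13 were not analysed here.

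Liver-side genes that guide or sustain lymphocytes were higher in part. Of 14 tested homing and survival genes, 4 rose and 0 fell (median log2 fold change 0.48), with 0 lower at an unadjusted p below 0.05, with DESeq2 or with limma-voom. Vcam1, an endothelial and Kupffer cell ligand for lymphocyte integrins, was at 29.98 and 29.5 CPM with baicalein and 11.5 and 11.5 CPM with saline (log2 fold change 1.38, SE 0.12, adjusted p = 1.28e-04). Cxcl13, the B cell attracting chemokine, was at 3.16 and 2.69 CPM with baicalein and 0.999 and 1.09 CPM with saline (1.48, SE 0.40, adjusted p = 0.0377). Icam1 (0.54, SE 0.14) and Cd274 (0.91, SE 0.25), which encodes the checkpoint ligand PD-L1, were the others. Vcam1 was called with any liver left out, and Cxcl13, Icam1 and Cd274 in none of those fits.

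Marker lists of other cells differed between the groups in part, some higher and some lower with baicalein. The neutrophil, dendritic cell, mast cell, stellate cell and bile duct sums overlapped between the groups. The 10 Kupffer cell markers all rose (median log2 fold change 0.84) and summed to 1079 and 920.5 CPM with baicalein and 640 and 561 CPM with saline. Relative to that sum, the 16 T cell genes stood at 0.0233 and 0.0270 in the baicalein livers and 0.0236 and 0.0242 in the saline livers, which overlap. The 7 B cell genes stood at 0.0173 and 0.0196 with baicalein and 0.0126 and 0.0147 with saline, which do not. The T cell sum includes Cd4, at 2.34 and 2.89 CPM with baicalein and 2.94 and 2.92 CPM with saline. Its ratio to the Kupffer cell sum was not taken without Cd4. Of 10 sinusoidal endothelial markers 8 rose and 0 fell, the sum being 663 and 683 CPM with baicalein and 468 and 391.7 CPM with saline. Red cell genes moved the other way: 4 of 5 tested fell, and the 6 summed to 138 and 153 CPM with baicalein and 920 and 659 CPM with saline. The part of these cells in the lymphocyte result was not tested. Some calls on these lists were lost with a liver left out, such as those of Clec4f, Csf1r, Lyve1, Oit3 and Hbb-bs. Of 6 tested monocyte genes, Lyz2 (0.87, SE 0.09), a lysozyme gene of macrophages too, and Plac8 (1.67, SE 0.29) rose and 4 did not pass, Ccr2 (0.29, SE 0.54) and Ly6c2 (0.92, SE 0.37) among them. Fn1, which hepatocytes express, held most reads of that list. Of 5 tested neutrophil genes, Ltf (3.71, SE 0.69), which encodes lactoferrin, rose and 4 did not pass. The 4 were Ngp (4.52, SE 1.40), S100a8 (0.25, SE 0.88), S100a9 (0.05, SE 0.58) and Retnlg (-0.89, SE 0.60). Ngp had 58 and 15 reads with baicalein and 3 and 0 with saline, and DESeq2 called 2 genes of this list higher. Of 8 tested dendritic cell genes, Irf8 (0.70, SE 0.13), a factor of B cells and myeloid cells as well, rose and 7 did not pass, with Clec9a at 1.08 (SE 0.46) and Flt3 at -0.43 (SE 0.53). Of 3 tested platelet genes, Ppbp (-2.22, SE 0.61) fell and 2 did not pass. Of these genes Lyz2 was called with any liver left out, and Plac8, Ltf, Irf8 and Ppbp were not. Of 6 mast cell and basophil markers 3 had no read in any liver, and Mcpt4 had 0 and 25 reads with baicalein and 6 and 0 with saline. Of 6 tested stellate cell and fibroblast genes, Lrat (2.44, SE 0.26) and Dcn (1.34, SE 0.10) rose, 0 fell and 4 did not pass. Their sum was 368 and 690 CPM with baicalein and 558 and 201 CPM with saline.

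**Figure D4:**
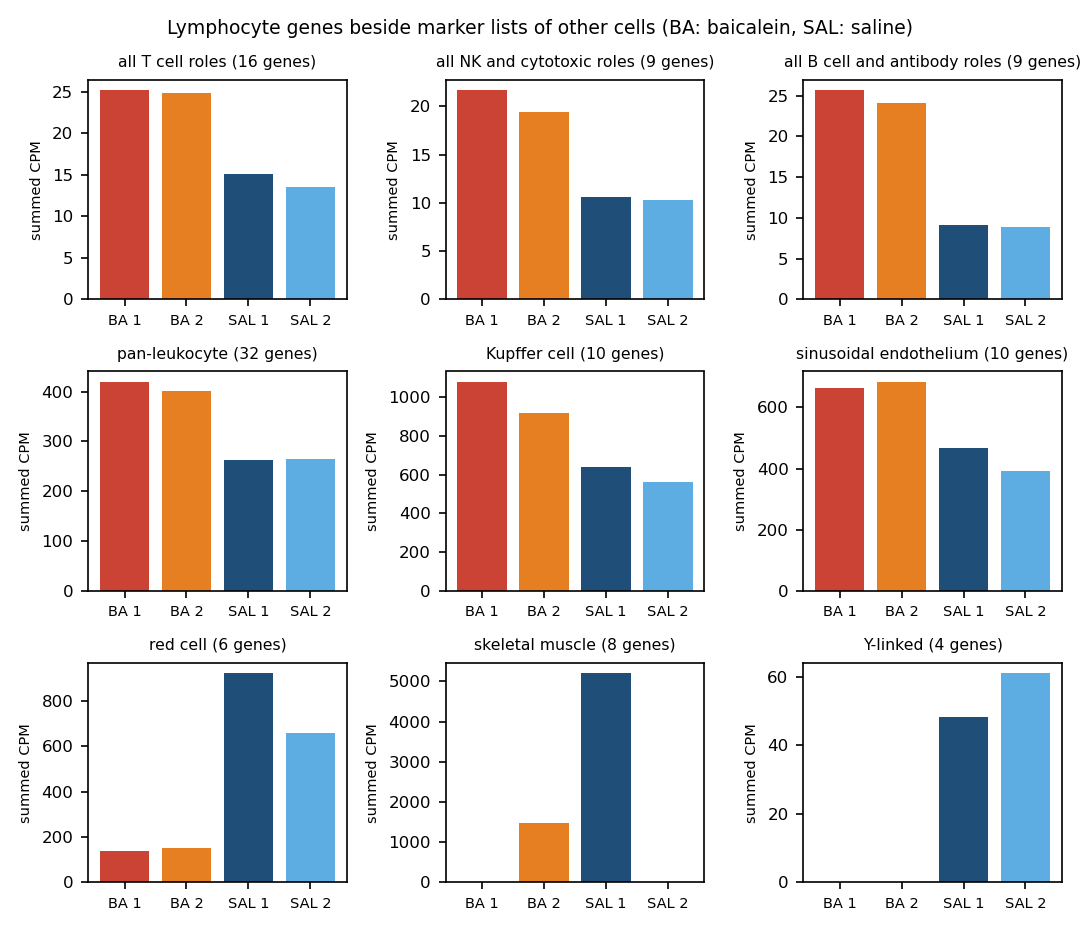
Summed CPM per liver, as bars from 0, for the lymphocyte lineages and for marker lists of other cells, each panel with its own scale. Lymphocyte, pan-leukocyte, Kupffer and endothelial sums are higher in the baicalein livers (BA), red cell and Y-linked sums are higher in the saline livers (SAL), and skeletal muscle is high in baicalein 2 and saline 1.

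Genes were also counted by the KEGG pathway that the table assigns to them, chosen after the values were seen, and are read against the 7.65% of all tested genes that rose and the 7.90% that fell. Of 84 tested T cell receptor signalling genes, 9 rose and 6 fell (median log2 fold change 0.05), shares near those of all tested genes. Of 70 tested B cell receptor signalling genes, 13 rose and 7 fell (0.16), and of 90 tested genes of NK cell cytotoxicity, 20 rose and 5 fell (0.31). These pathways hold 11, 3 and 8 of the 38 genes. Hematopoietic cell lineage (66 tested, 11 of the 38) had 8 higher and 1 lower (median 0.46). Primary immunodeficiency (27 tested, 9 of the 38) had 2 higher and 1 lower (median 0.49).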

How the data were processed

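RNA was sequenced from 4 mouse livers, with libraries made by a SMARTer mRNA kit per the labels' protocols. The authors deposited 1 table with raw counts and FPKM of each gene in each liver, with gene lengths. The submitters' processing notes give mm10 as the build, while the aligner, the counter and the use of strand are not stated there or in the labels. Of the 38 listed genes 1 has the same start and end in the table as in GENCODE M21 on mm10, so positions are printed as the table gives them, on a build not given, and promoter positions are those of RefSeq on GRCm38.p6. For every listed gene the deposited FPKM implies the deposited count, and 3 other genes differ.

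Columns were tied to livers by title and grouped by the treatment label. Counts of 13976440 to 18731616 per liver were kept where filterByExpr allowed, scaled by TMM (factors 0.963 to 1.07) and compared by edgeR's quasi-likelihood test (edgeR 4.0.16, R 4.3.3; robust, baicalein over saline, two-sided, Benjamini-Hochberg over 12657 genes, threshold 0.05). The SE is the log2 fold change divided by the square root of F. An exact permutation test of 2 against 2 livers cannot go below 0.333. CPM use the normalised library size, and 3 counts equal 0.150 to 0.219 CPM. Intervals are exact binomial at 95% and cover counting error only.

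The listed genes, their roles and the other lists were chosen with earlier results of these data known. All 38 are accounted for, those with at least 20 counts with values in each liver. From the other lists any gene past the threshold or else the 3 of smallest p could be named. Some named genes that did not pass, such as Ccr2, S100a9, Flt3, Krt19 and Epcam, lie outside that rule and were named by choice. The alternatives tried were DESeq2 1.42.0, limma-voom (limma 3.58.1), median-of-ratios scaling, other filters, counts implied by FPKM, leaving out each liver, and a block for the replicate number. Crosswise pairs, liver-by-liver sums and the pan-leukocyte count were added after seeing the data.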

Additional observations from a re-analysis of the deposited data

How the results depend on the processing

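Over 345 refits of the 30 tested lymphocyte genes, 314 kept their direction and their side of the threshold, 18 lost a call, 9 gained a call and 4 changed sign. Every lost call was that of Lck, Il2rb or Gzma, and most kept results were those of genes not called in the main fit. Of the 9 gained calls, 7 came from the crosswise pairs. The refits on counts implied by FPKM used the same counts for each of the 30 genes, so they could hardly differ. The sign changes were Ncr1 (0.70 without baicalein 2, 0.61 without saline 1) and Klrd1 (-0.54 and -0.13). With each liver left out in turn, Ncr1 ran from -2.27 to 0.70 and Klrd1 from -0.54 to 0.87. The 4 lymphocyte genes that rose became 2 with DESeq2 (Jchain and Il2rb), 1 when the replicate number was a block and 1 with any liver left out, and 0 fell in any fit. Over all genes, 968 higher and 1000 lower became 531 and 601 with the block, and 521 to 665 and 535 to 663 with a liver left out. Those fits have fewer degrees of freedom. The 15 pan-leukocyte genes became 9 with the block and 4 to 9 with a liver left out. Same-numbered livers deviated in opposite directions over all tested genes (correlation -0.77). Those genes include the muscle genes that cross the groups, so the correlation cannot show whether the numbers mark pairs. Pairs taken crosswise, chosen after seeing the data, gave 1809 higher, 1689 lower and 11 lymphocyte genes higher.

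The log2 ratio of summed CPM was 0.90 in place of 0.82 for NK receptors by raw library totals. Without the member of highest level it was 1.07 for the receptor complex, 2.84 in place of 2.06 for transcription factors (without Tbx21) and 0.89 in place of 2.92 for antibody secretion (without Jchain), where 6 reads of Mzb1 remain. No role changed direction. Depth limits the scarcest genes, 5 of the 38 having under 20 reads over the 4 livers.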
